A study of Mus musculus with 9 samples.

Results

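The tumour necrosis factor (TNF) superfamily, which joins the ligands related to TNF with the receptors that bind them, was followed through osteoblastic induction of MSC2 cells. MSC2 is a mesenchymal stromal line grown from the bone marrow of C57BL/6 mice aged 6 weeks, and because it is clonal all values come from 1 clone. Members were taken by symbol, as every gene named Tnfsf or Tnfrsf with a number together with Tnf, Lta, Ltb, Fas, Fasl, Ltbr, Cd40, Cd27, Ngfr, Eda, Edar and Eda2r, where a probe set carried that symbol alone. This gave 41 genes, 14 ligands and 27 receptors, among the 22180 genes compared. Each member was read by 1 probe set. Total RNA was hybridised to 9 arrays, 3 from undifferentiated cells, 3 from cells after 14 days and 3 from cells after 28 days of induction. Undifferentiated cells grew in α-MEM lacking ascorbic acid, and induction was started at confluence in DMEM with 0.1 µM dexamethasone, a synthetic glucocorticoid, 0.2 mM ascorbate phosphate, 10 mM β-glycerophosphate and 1 mM pyruvate, each medium with 10% serum. Medium, confluence and age of the culture therefore changed together with induction and cannot be told apart here.

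TNF superfamily ligands are mostly membrane proteins that act on neighbouring cells or are shed, and their receptors signal through TRAF adaptors to NF-kB and MAP kinases. Receptors with a cytoplasmic death domain can also recruit caspases, while decoy receptors bind a ligand without passing on a signal. In bone, stromal cells and osteoblasts make RANKL (Tnfsf11), which drives osteoclast formation through its receptor RANK (Tnfrsf11a), and the secreted decoy osteoprotegerin, OPG (Tnfrsf11b), which captures RANKL.

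Every probe set had been centred on its own median over the 9 arrays, so a value of 0 is the median of that gene. Several arrays of a gene can hold it. Values are differences on a log2 scale, and no gene can be ranked against another by level. Arrays of the same group differed from each other by a standard deviation (SD) of 0.103 to 0.146 over genes, and arrays of different groups by 0.171 to 0.552. The labels call the 3 arrays of a group independent and do not say whether they are separate cultures, so p-values measure the spread between these arrays. Fkbp5, a gene known to respond to glucocorticoids, was higher by 1.42 at 14 days and 1.27 at 28 days than in undifferentiated cells (limma adjusted p = 2.15e-08 and 3.55e-08), and this is the direction in which the values are read here. Of 7 osteoblast markers only Alpl, alkaline phosphatase, passed the test, higher by 0.50 at 14 days and 0.46 at 28 days (SE 0.09, limma adjusted p = 0.000896 and 0.0013). Sp7, Bglap, Ibsp, Dmp1, Phex and Sost did not pass at either time, and whether their RNA was present cannot be read from centred values. Fewer cells of a type and less RNA per cell cannot be told apart in these bulk samples.

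At 14 days 14 of the 41 members differed from undifferentiated cells at a limma adjusted p under 0.05, 8 of them higher and 6 lower, or 34.1% of the members against a background of 35.7% of all genes (18.2% higher, 17.5% lower). At 28 days 16 members passed, 11 higher and 5 lower, or 39.0% against a background of 39.9% (20.4% higher, 19.5% lower). The share of members that changed was thus close to that of all genes at both times. Between 28 and 14 days 6 members passed, 2 higher and 4 lower at 28 days, or 14.6% against a background of 7.39% (2.72% higher, 4.67% lower). A change of at least 2-fold that passed the test was found in 7 members at 14 days (background 4.71%), in 6 at 28 days (background 6.19%) and in 0 between 28 and 14 days (background 0.108%). The median log2 fold change of the members was 0.05 at 14 days and 0.04 at 28 days, beside 0.0048 and 0.017 for all genes. Both comparisons with undifferentiated cells use the same 3 undifferentiated arrays.

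Among the groups of members, 1 of 14 ligands and 13 of 27 receptors passed at 14 days, and 3 of 14 ligands and 13 of 27 receptors passed at 28 days. The background was 35.7% of all genes at 14 days and 39.9% at 28 days. By receptor type, 3 of 7 death domain receptors, 4 of 4 secreted or decoy receptors and 6 of 16 other receptors passed at 14 days. At 28 days these counts were 4 of 7, 3 of 4 and 6 of 16. The secreted or decoy class was Tnfrsf11b, Tnfrsf22, Tnfrsf23 and Tnfrsf26, with Tnfrsf26 grouped beside its relatives. The last 3 are adjacent, closely related genes whose probe sets may share signal, so they are not separate observations of the class. The arrays of induced and undifferentiated cells did not overlap in 18 members at 14 days (background 44.8%) and in 18 at 28 days (background 46.6%), and those of 28 and 14 days did not overlap in 11 members (background 24.4%).

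**Figure D1:**
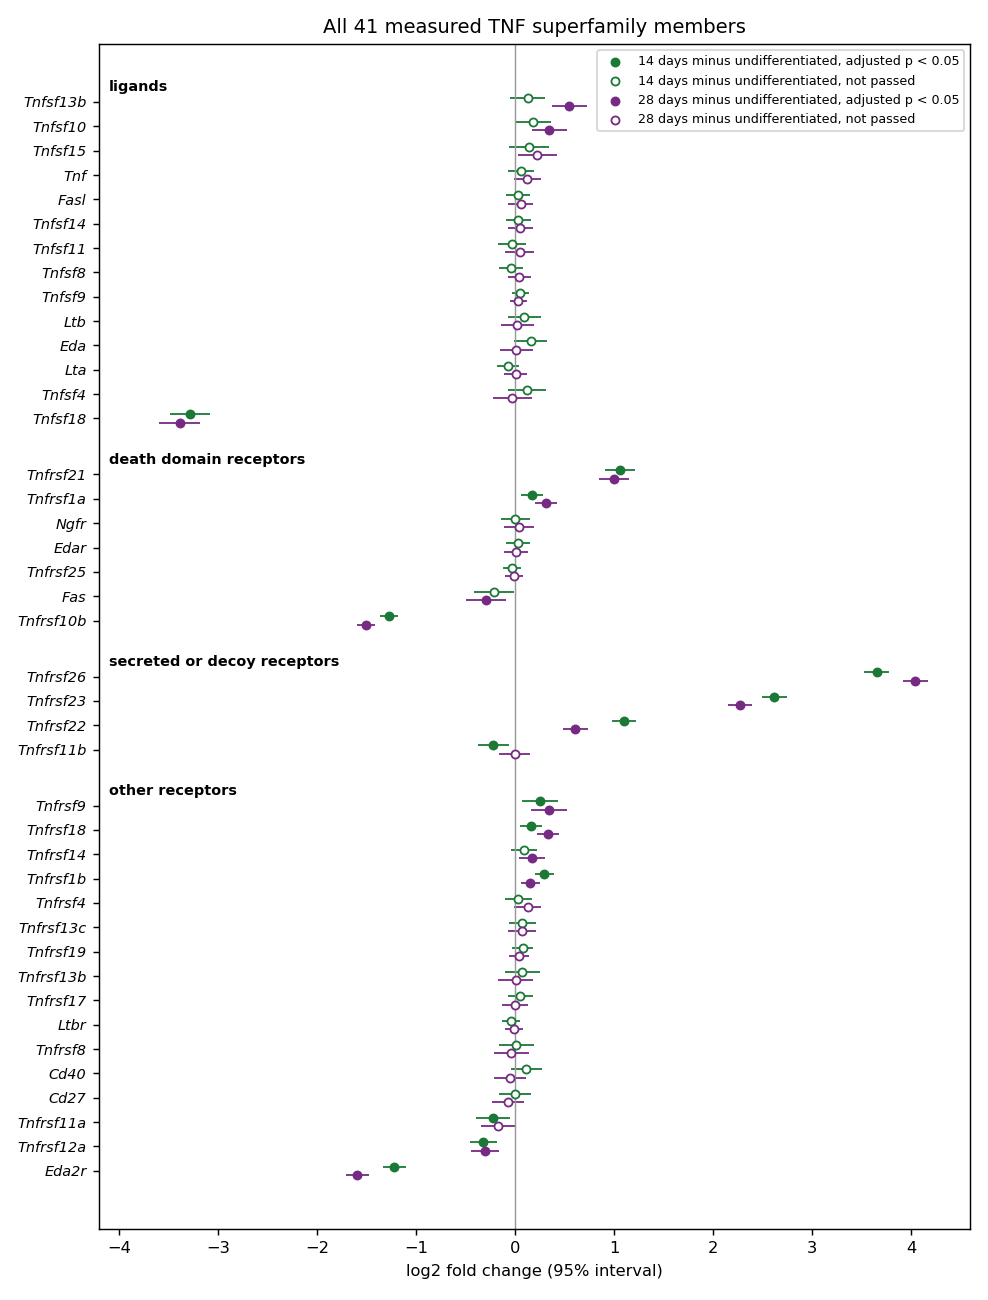
Log2 fold change of each of the 41 members (horizontal axis, with its 95% interval) at 14 days (green) and 28 days (purple) minus undifferentiated cells, grouped by role. Filled circles passed limma's test at an adjusted p under 0.05; most members sit near 0, while Tnfrsf26, Tnfrsf23, Tnfrsf22 and Tnfrsf21 lie to the right and Tnfsf18, Eda2r and Tnfrsf10b to the left.

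The ligand with the widest change was Tnfsf18, which encodes GITRL, the ligand of the costimulatory receptor GITR. Its centred log2 values were 3.39, 3.39 and 3.06 in undifferentiated cells, -0.09, 0.08 and -0.01 at 14 days, and -0.14, -0.18 and 0 at 28 days. All 3 undifferentiated arrays stood far above all 6 induced arrays. The log2 fold change was -3.29 at 14 days (SE 0.09, limma adjusted p = 1.30e-09), or 9.75-fold lower, and -3.39 at 28 days (SE 0.09, adjusted p = 6.33e-10), or 10.5-fold lower. The 28-day arrays did not differ from the 14-day arrays beyond their spread, with a difference of -0.10 (95% interval -0.31 to 0.10). Tnfrsf18, which encodes the receptor GITR, was by contrast higher in induced cells, by 0.16 at 14 days (SE 0.05, adjusted p = 0.0251) and 0.33 at 28 days (SE 0.05, adjusted p = 0.00026). Its 14-day call ended in 5 of the 9 fits that left out 1 array. A probe set assigned to both Tnfrsf18 and Gm16008 gave 0.08 at 14 days (limma adjusted p = 0.24) and 0.15 at 28 days (adjusted p = 0.0246).

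Tnfsf13b encodes BAFF, a survival factor of B cells, and had values of -0.35, -0.16 and 0 in undifferentiated cells, 0, 0 and -0.13 at 14 days and 0.32, 0.41 and 0.41 at 28 days. Its 28-day arrays lay above all others, whereas the 14-day and undifferentiated arrays overlapped. It was higher by 0.55 at 28 days than in undifferentiated cells (SE 0.08, limma adjusted p = 0.000241), or 1.46-fold, and higher by 0.42 at 28 than at 14 days (adjusted p = 0.0103). The 14-day difference from undifferentiated cells was 0.13 (SE 0.08, adjusted p = 0.281). The receptors of BAFF, Tnfrsf13b, Tnfrsf13c and Tnfrsf17, were called in 0 of the 3 comparisons. Tnfsf10, which encodes the death ligand TRAIL, was higher by 0.35 at 28 days (SE 0.08, adjusted p = 0.00523), while its 14-day difference of 0.19 did not pass (adjusted p = 0.106).

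The other 11 ligands, Tnf, Lta, Ltb, Fasl, Eda, Tnfsf4, Tnfsf8, Tnfsf9, Tnfsf11, Tnfsf14 and Tnfsf15, passed in no comparison. Tnf, the founding cytokine of the family, had a difference of 0.06 at 14 days (limma adjusted p = 0.539) and 0.12 at 28 days (adjusted p = 0.139). Tnfsf15, an endothelial and T cell cytokine, came nearest to the threshold among them, with 0.23 at 28 days (SE 0.09, adjusted p = 0.07). Its 28-day arrays held 0, 0.14 and 0.37, against -0.06, -0.02 and -0.10 in undifferentiated cells, so the groups did not overlap.

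Tnfrsf26, Tnfrsf23 and Tnfrsf22 rose at both times, Tnfrsf26 the most of all members in the values as deposited; after repeated quantile normalization Tnfrsf23 was ahead at 14 days, at 1.97 against 1.81. These are related receptors without a death domain. Mouse Tnfrsf22 and Tnfrsf23 are known as decoy receptors of TRAIL. Tnfrsf26 had values of -3.72, -3.57 and -3.58 in undifferentiated cells, 0.11, 0 and -0.04 at 14 days, and 0.40, 0.40 and 0.45 at 28 days. The 3 groups did not overlap, with the 28-day arrays highest and the undifferentiated arrays lowest. The log2 fold change was 3.65 at 14 days (SE 0.06, limma adjusted p = 5.51e-11), or 12.6-fold, 4.04 at 28 days (SE 0.06, adjusted p = 1.80e-11), or 16.5-fold, and 0.39 between 28 and 14 days (adjusted p = 0.00218).

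Tnfrsf23 had values of -2.28, -2.21 and -2.34 in undifferentiated cells, 0.30, 0.42 and 0.30 at 14 days, and 0, -0.08 and 0.06 at 28 days. Here the 14-day arrays were the highest and the undifferentiated arrays the lowest, again with no overlap. The log2 fold change was 2.62 at 14 days (SE 0.06, limma adjusted p = 2.74e-10), or 6.14-fold, and 2.27 at 28 days (adjusted p = 3.22e-10), or 4.83-fold, and the log2 difference between 28 and 14 days was -0.35 (adjusted p = 0.00404). Tnfrsf22 had values of -0.68, -0.56 and -0.56 in undifferentiated cells, 0.44, 0.61 and 0.45 at 14 days, and 0.02, 0 and 0 at 28 days. It showed the same order of groups as Tnfrsf23, with differences of 1.10 at 14 days (SE 0.06, adjusted p = 9.07e-08), 0.61 at 28 days (adjusted p = 6.70e-06) and -0.49 between 28 and 14 days (adjusted p = 0.000527). Between 28 and 14 days Tnfrsf26 thus rose while Tnfrsf22 and Tnfrsf23 fell. The 3 genes are close relatives, and which probes their probe sets share cannot be read from the values used here, so the split of signal among them is uncertain.

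**Figure D2:**
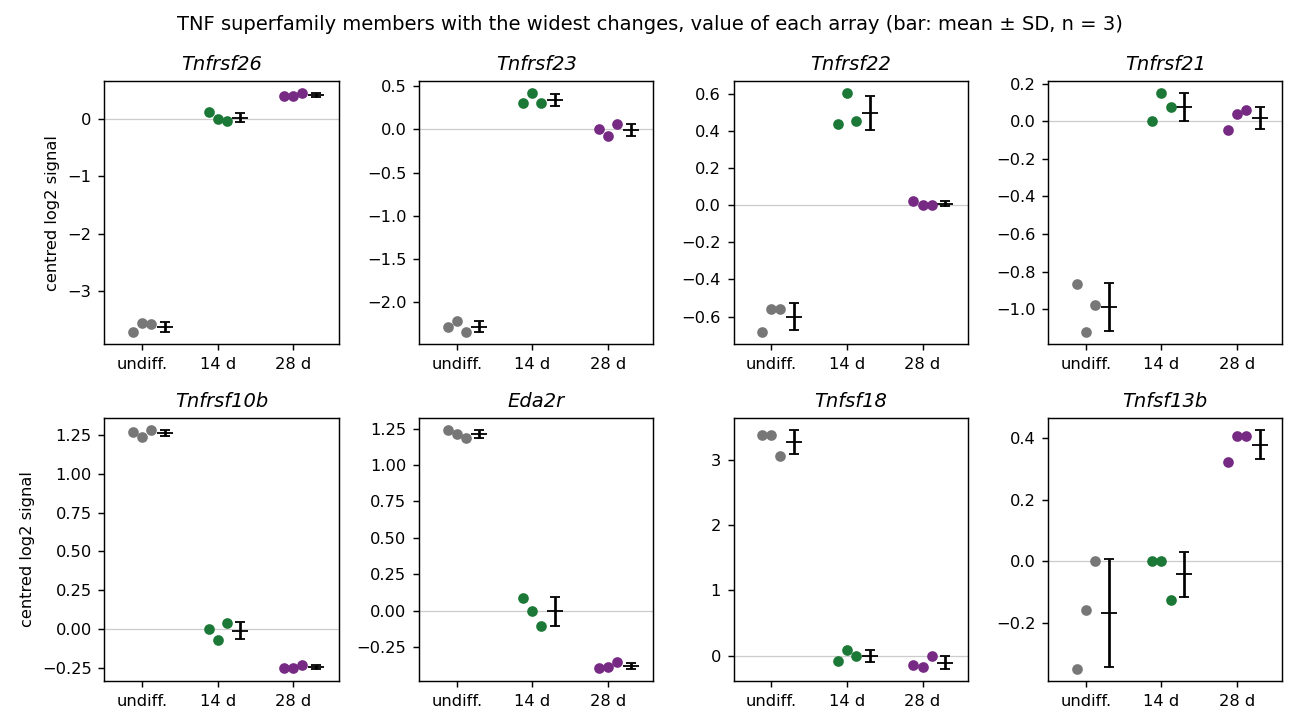
Centred log2 signal (vertical axis, a separate scale in each panel) of the 8 members that were called with a log2 change of at least 0.5, each point 1 array, with the mean and SD of the 3 arrays beside it. The undifferentiated arrays lie below all induced arrays for Tnfrsf26, Tnfrsf23, Tnfrsf22 and Tnfrsf21 and above them for Tnfrsf10b, Eda2r and Tnfsf18; for Tnfsf13b only the 28-day arrays stand apart.

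Tnfrsf26, Tnfrsf22 and Tnfrsf23 follow each other directly on chromosome 7 in the RefSeq annotation of GRCm38.p6. Cars, a tRNA synthetase gene beside Tnfrsf26, moved the other way, with -0.82 at 14 days and -0.97 at 28 days (limma adjusted p = 9.80e-07 and 2.30e-07). Nap1l4, the next gene, was at -0.23 and -0.38 (adjusted p = 0.00619 and 0.000238), and Osbpl5, on the other side, at 0.37 and 0.31 (adjusted p = 0.000218 and 0.000693). Slc22a18, Phlda2, Mrgprg, Mrgpre and Nadsyn1 did not pass at either time. None of these measured neighbours changed as much as 2-fold. Tnfsf18 lies on chromosome 1 between Tnfsf4 (OX40 ligand) and Fasl (Fas ligand), both uncalled, with differences of 0.12 and 0.03 at 14 days and -0.03 and 0.06 at 28 days. Beyond Fasl, Suco was at -0.47 and -0.62 (limma adjusted p = 1.19e-05 and 1.07e-06) and Pigc at 0.34 and 0.31 (adjusted p = 3.39e-05 and 5.45e-05). In the annotation 15 members have another member as their direct neighbour, among them Tnf, Lta and Ltb on chromosome 17, none of which was called.

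**Figure D3:**
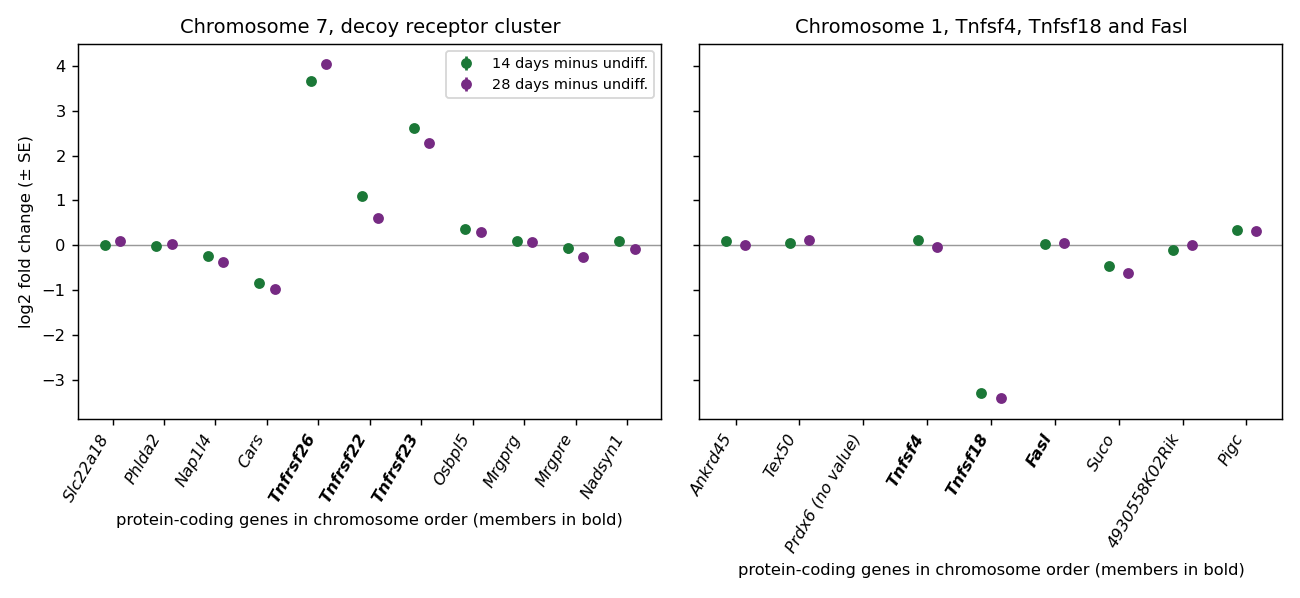
Log2 fold change at 14 days (green) and 28 days (purple) minus undifferentiated cells for the protein-coding genes around the chromosome 7 receptor genes (left) and around Tnfsf18 on chromosome 1 (right), in chromosome order with members in bold. Bars are SE and are mostly smaller than the symbols; Tnfrsf26 and Tnfsf18 reach 4.04 and -3.39 while the measured neighbours that are not members lie between -0.97 and 0.37.

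Among the death domain receptors, Tnfrsf10b, the TRAIL death receptor of mice, had values of 1.27, 1.24 and 1.28 in undifferentiated cells, 0, -0.07 and 0.04 at 14 days and -0.25, -0.25 and -0.23 at 28 days. The groups did not overlap and stood in falling order. The log2 fold change was -1.27 at 14 days (SE 0.04, limma adjusted p = 3.48e-09), or 2.42-fold lower, -1.51 at 28 days (adjusted p = 6.91e-10), or 2.85-fold lower, and -0.24 between 28 and 14 days (adjusted p = 0.00666). Among the receptors named here for TRAIL, the death receptor was therefore lower while Tnfrsf22 and Tnfrsf23 were higher at both times. The ligand Tnfsf10 passed only in the 28-day comparison. Tnfrsf21, which encodes the death domain receptor DR6, had values of -0.86, -1.12 and -0.98 in undifferentiated cells, 0, 0.15 and 0.07 at 14 days and -0.05, 0.04 and 0.06 at 28 days. All induced arrays were above all undifferentiated arrays, by 1.06 at 14 days (SE 0.07, adjusted p = 5.68e-07), or 2.09-fold, and 1.00 at 28 days (adjusted p = 6.88e-07). The induced times did not differ beyond their spread (-0.06, 95% interval -0.21 to 0.09).

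Tnfrsf1a, the broadly expressed TNF receptor with a death domain, was higher by 0.17 at 14 days (SE 0.05, limma adjusted p = 0.0193) and 0.32 at 28 days (adjusted p = 0.000433). Tnfrsf1b, the TNF receptor that lacks a death domain, was higher by 0.30 at 14 days (SE 0.04, adjusted p = 0.000211) and 0.15 at 28 days (adjusted p = 0.0124). Both TNF receptors were thus slightly higher in induced cells, while Tnf itself did not pass. Fas, the receptor of Fas ligand, fell by 0.29 at 28 days (SE 0.09, adjusted p = 0.0268), and its 14-day difference of -0.21 did not pass (adjusted p = 0.104). Ngfr, Edar and Tnfrsf25 did not pass in any comparison.

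Eda2r, a receptor of the A2 form of ectodysplasin, had values of 1.24, 1.22 and 1.19 in undifferentiated cells, 0.09, 0 and -0.10 at 14 days and -0.40, -0.38 and -0.35 at 28 days. Like those of Tnfrsf10b, its groups did not overlap and stood in falling order. The log2 fold change was -1.22 at 14 days (SE 0.05, limma adjusted p = 2.37e-08), or 2.33-fold lower, -1.59 at 28 days (adjusted p = 2.33e-09), or 3.02-fold lower, and -0.37 between 28 and 14 days (adjusted p = 0.00172). Its ligand Eda and the related receptor Edar did not pass. Tnfrsf12a, which encodes Fn14, the receptor of TWEAK, fell by 0.32 at 14 days (SE 0.06, adjusted p = 0.0019) and 0.30 at 28 days (adjusted p = 0.0024). Tnfrsf9, a costimulatory receptor of T cells, was higher by 0.25 at 14 days (SE 0.08, adjusted p = 0.0366) and 0.34 at 28 days (adjusted p = 0.00604), and Tnfrsf14, which binds LIGHT and lymphotoxin, by 0.17 at 28 days (SE 0.06, adjusted p = 0.0386).

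The remaining 12 receptors, Ltbr, Cd40, Cd27, Ngfr, Edar, Tnfrsf4, Tnfrsf8, Tnfrsf13b, Tnfrsf13c, Tnfrsf17, Tnfrsf19 and Tnfrsf25, passed in none of the 3 comparisons. With the 11 uncalled ligands they make 23 members, whose 9 values each lay between -0.25 and 0.37. Their differences from undifferentiated cells ran from -0.07 to 0.16 at 14 days and from -0.07 to 0.23 at 28 days, and their 95% intervals stayed within -0.18 to 0.34 and -0.23 to 0.42. Tnfrsf25 held the same value in all 3 arrays at 14 days, so its spread is understated there. Exact zeros made up 15.2% to 28.1% of the deposited values of an array. Other members also held them in several arrays, and their spread may be understated too.

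RANKL and OPG, the pair best known from osteoblasts, differed little between groups. Whether RNA of either gene was present cannot be read from centred values. Tnfsf11 (RANKL) had values of 0, 0.06 and -0.02 in undifferentiated cells, -0.06, -0.08 and 0.08 at 14 days and 0.19, 0 and -0.01 at 28 days. All 3 groups overlapped. The difference was -0.03 at 14 days (SE 0.06, 95% interval -0.18 to 0.11, limma adjusted p = 0.778) and 0.05 at 28 days (95% interval -0.10 to 0.19, adjusted p = 0.636). Tnfrsf11b (OPG) had values of 0.03, 0.10 and 0 in undifferentiated cells, -0.30, -0.05 and -0.18 at 14 days and 0.02, -0.06 and 0.15 at 28 days. The 14-day arrays lay below the undifferentiated arrays, and those at 28 days overlapped with both. It fell by 0.22 at 14 days (SE 0.07, adjusted p = 0.0363) and differed by -0.01 at 28 days (95% interval -0.165 to 0.155, adjusted p = 0.968). Tnfrsf11a (RANK) had values of 0.33, 0.11 and 0 in undifferentiated cells, -0.07, 0 and -0.15 at 14 days and 0, 0 and -0.07 at 28 days. It fell by 0.22 at 14 days (SE 0.08, adjusted p = 0.0484), although the groups met at 0, and the 28-day difference of -0.17 did not pass (adjusted p = 0.111).

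The log2 ratio of Tnfsf11 to Tnfrsf11b, taken within each array, averaged 0.16 ± 0.16 at 14 days and -0.03 ± 0.01 in undifferentiated cells (SD, n = 3 each). The difference of 0.19 gave p = 0.2 in an exact two-sided permutation test, and 0.1 is the smallest p that 3 against 3 arrays can give. At 28 days the ratio averaged 0.02 ± 0.17, a difference of 0.05 from undifferentiated cells (exact permutation p = 0.7) and of -0.14 from 14 days (exact permutation p = 0.4). Adjusted over the 3 comparisons these p-values were 0.6, 0.7 and 0.6. No change of the ratio could be shown at this number of arrays.

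**Figure D4:**
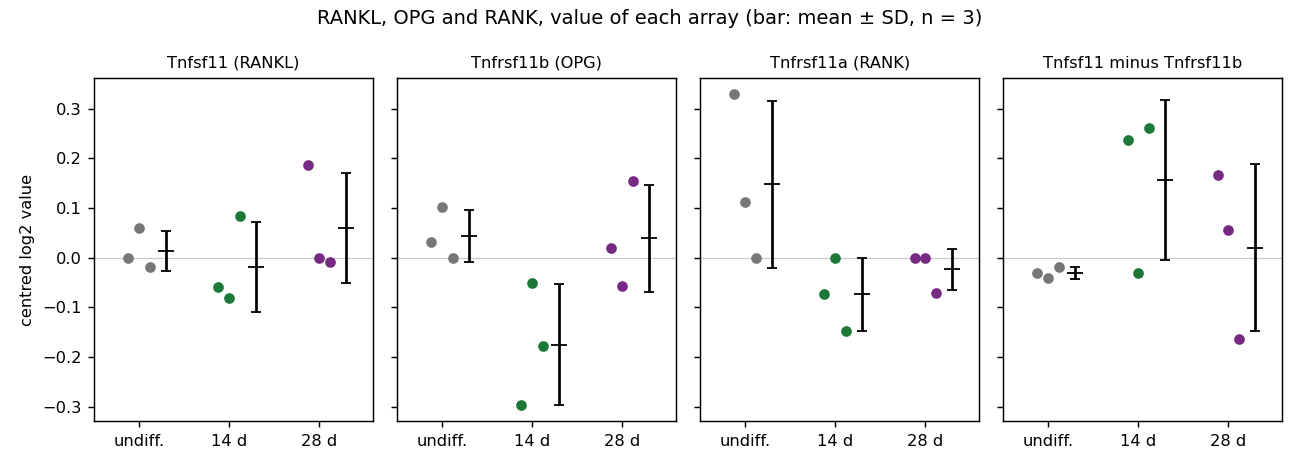
Centred log2 values of Tnfsf11 (RANKL), Tnfrsf11b (OPG), Tnfrsf11a (RANK) and of the ratio of Tnfsf11 to Tnfrsf11b in each of the 9 arrays, with the mean and SD of each group beside the points. All values lie between -0.30 and 0.33, and the groups overlap except for Tnfrsf11b at 14 days, whose arrays are below the undifferentiated arrays.

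A group of 7 calls with a log2 change under 0.5 ended when single arrays were left out. The 14-day call of Tnfrsf11b ended without any of the undifferentiated replicates 1 to 3, of 14-day replicates 1 or 3 or of 28-day replicate 1, with limma adjusted p-values of 0.0511 to 0.138, and over the 9 fits that leave out 1 array they ran from 0.014 to 0.138. That of Tnfrsf11a ended in 8 of those 9 fits, all but the one without undifferentiated replicate 3 (adjusted p from 0.0111 to 0.159), and its fold change moved to -0.13 without undifferentiated replicate 1. Tnfrsf18 at 14 days ended in 5 fits (undifferentiated replicates 1 and 2 and all 14-day replicates, adjusted p up to 0.0863). Tnfrsf1a at 14 days ended in 4 (undifferentiated replicates 2 and 3 and 14-day replicates 2 and 3, up to 0.068). Tnfrsf9 at 14 days ended in 4 as well (undifferentiated replicates 2 and 3, 14-day replicate 3 and 28-day replicate 2, up to 0.136), with a difference of 0.16 without 14-day replicate 3. At 28 days Fas ended in 3 fits (undifferentiated replicates 1 and 2 and 28-day replicate 1, up to 0.0921), with -0.18 without 28-day replicate 1. Tnfrsf14 ended in 5 (undifferentiated replicates 1 and 2, 14-day replicate 3 and 28-day replicates 2 and 3, up to 0.128). Without undifferentiated replicate 3 Tnfrsf11a passed at 28 days (adjusted p = 0.0245). No other member call ended when an array was left out; that of Tnfrsf1b at 28 days, at 0.15, had adjusted p-values of 0.0104 to 0.0412 over the 9 fits.

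Normalizing the 9 arrays again by quantiles moved many of the wide changes by more than 1.5 times. The centred values spread far less in induced arrays (SD over genes 0.083 to 0.103 at 14 days and 0.153 to 0.161 at 28 days) than in undifferentiated arrays (0.439 to 0.447). Most arrays were induced, so the median on which each probe set was centred tends to lie among them, which narrows their values. The step acts on these centred values and forces them onto 1 shape. Its fold changes are therefore not those of renormalized signals. Under it Tnfrsf26 was at 1.81 at 14 days and 2.41 at 28 days, Tnfsf18 at -1.99 and -2.13, Tnfrsf21 at 0.69 and 0.55, Eda2r at -0.65 at 14 days, Tnfrsf10b at -0.67 and -0.99, and Tnfrsf23 and Tnfrsf22 at 1.13 and 0.35 at 28 days. Between 28 and 14 days Tnfrsf22 was at -1.14, Tnfrsf23 at -0.84 and Tnfrsf26 at 0.59, wider than before. All of these kept their direction and passed limma's test. The same setting ended the 14-day calls of Tnfrsf11a, Tnfrsf18, Tnfrsf1a and Tnfrsf9 and the 28-day calls of Fas, Tnfrsf12a, Tnfrsf14, Tnfrsf1b and Tnfrsf9. Tnfrsf11b was at -0.36 under it at 14 days.

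Upstream sequences are printed for the member with the widest fall, for the member of the chromosome 7 group that has a window in the RefSeq promoter table, and for RANKL, which did not pass the test. Each is the 250 bases before the annotated start of the gene, 5′ to 3′ on the strand of the gene, in GRCm38.p6 coordinates: chr1:161494407-161494656 on the plus strand for Tnfsf18, chr7:143685876-143686125 on the minus strand for Tnfrsf23 and chr14:78308044-78308293 on the minus strand for Tnfsf11. Capitals mark the letters TATAA, which are also the core of the promoter element bound by TBP. Whether TBP binds at the marked letters was not tested.
Tnfsf18: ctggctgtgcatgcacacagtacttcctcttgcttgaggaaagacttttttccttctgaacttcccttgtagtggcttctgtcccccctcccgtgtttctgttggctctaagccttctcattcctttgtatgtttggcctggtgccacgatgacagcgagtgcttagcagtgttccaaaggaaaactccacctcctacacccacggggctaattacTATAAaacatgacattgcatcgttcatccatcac
Tnfrsf23: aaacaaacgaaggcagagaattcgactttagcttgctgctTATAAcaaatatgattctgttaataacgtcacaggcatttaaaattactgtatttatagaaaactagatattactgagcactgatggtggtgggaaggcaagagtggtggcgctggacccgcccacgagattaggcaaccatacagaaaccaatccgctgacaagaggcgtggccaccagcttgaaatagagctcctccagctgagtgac
Tnfsf11: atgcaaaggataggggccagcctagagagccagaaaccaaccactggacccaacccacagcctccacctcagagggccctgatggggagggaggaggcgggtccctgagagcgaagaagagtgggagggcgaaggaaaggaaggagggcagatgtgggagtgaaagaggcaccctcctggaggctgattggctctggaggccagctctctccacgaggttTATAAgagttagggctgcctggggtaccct
The capitals begin 34 bases before the start of Tnfsf18, 210 bases before that of Tnfrsf23 and 30 bases before that of Tnfsf11. Windows were found for 34 of the 41 members, 38 windows in all, and TATAA on the strand of the gene was present in 9 of them (23.7%) against 16% of 32851 windows of all genes. The NF-kB motif, searched on both strands, was in 4 member windows (10.5%) against 7.25% of all windows, in those of Tnfrsf8, Tnfrsf9, Tnfrsf25 and Ltb. The letters AGAACA, a glucocorticoid receptor half-site, searched on both strands, were in 0 member windows against 16.1% of all windows. GC content was 48.4% for Tnfsf18, 44.8% for Tnfrsf23 and 60.4% for Tnfsf11, beside a median of 52.4% over all windows.

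Downstream of the receptors, 6 of 30 measured adaptors and kinases were higher and 10 lower at 14 days, and 6 were higher and 13 lower at 28 days. Of all genes 35.7% were called at 14 days, 39.9% at 28 days and 7.39% between 28 and 14 days. The median over this list was -0.04 at 14 days and -0.05 at 28 days. Birc2, an inhibitor of apoptosis that ubiquitinates receptor complexes, was higher by 1.11 at 14 days and 1.02 at 28 days (limma adjusted p = 8.78e-07 and 1.40e-06). Map3k5, the kinase ASK1, was higher by 0.71 and 0.73. Map3k14, the kinase NIK of the alternative NF-kB route, fell by 0.76 and 0.67, and Tank, a TRAF-binding protein, was at -0.68 and -0.77. Ripk3, a kinase of necroptosis, fell by 0.46 at 14 days and 0.75 at 28 days, and it was the 1 gene of this list called between 28 and 14 days (-0.30, adjusted p = 0.0027).

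Of 13 measured NF-kB subunits and inhibitors, 3 were higher and 6 lower at 14 days (median -0.12, background 35.7% called). At 28 days 2 were higher and 5 lower (median -0.11, background 39.9%). Rel, the subunit c-Rel, fell by 1.02 and 1.42 (limma adjusted p = 1.08e-07 and 6.50e-09). The inhibitors moved in different directions, with Tnip1 higher by 0.63 and 0.78, Tnip3 lower, at -0.61 and -0.86, and Tnfaip3 (A20) lower, at -0.54 and -0.77. Rela and Relb did not pass.

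Genes known to respond to NF-kB in stromal cells did not move one way. Of 18, 8 were higher and 6 lower at 14 days (median 0.06, background 35.7% called). At 28 days 8 were higher and 5 lower (median 0.07, background 39.9%). Saa3, an acute phase protein, was higher by 3.45 at 14 days and 3.41 at 28 days (limma adjusted p = 5.02e-10 and 3.06e-10). The collagenase Mmp13 was higher by 1.44 and 1.80 and the stromelysin Mmp3 by 1.39 and 2.38. Ptgs2 (cyclooxygenase) fell by 1.19 and 0.63. Lcn2, which binds bacterial siderophores, was higher by 0.77 and 1.53. Between 28 and 14 days 3 passed (background 7.39%), Mmp3 with 0.99, Lcn2 with 0.76 and Ptgs2 with 0.57, all higher at 28 days.

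Among 8 sheddases and processing proteins of TNF family members, 2 were higher and 3 lower at 14 days and 3 were higher and 3 lower at 28 days, with medians of 0.0017 and 0.10. For this list and the next ones the background was 35.7% of all genes at 14 days and 39.9% at 28 days. Mmp14, a membrane metalloprotease, was higher by 0.78 and 0.71, and Adam10 fell by 0.54 and 0.88 (limma adjusted p = 3.29e-06 and 6.22e-08). Of 17 measured receptors and regulators upstream of RANKL and OPG, 5 were higher and 8 lower at 14 days and 6 were higher and 6 lower at 28 days, with medians of 0.02 and -0.07. Ptger4, a prostaglandin E receptor, fell by 1.11 and 1.09, and Il6st, the shared receptor chain of the interleukin-6 family, was at -0.63 and -0.64. Ctnnb1 (β-catenin) was higher by 0.71 and 0.66 and Pth1r, the parathyroid hormone receptor, by 0.66 and 1.03. Of 9 measured core apoptosis genes, 3 were higher and 4 lower at 14 days and 2 were higher and 5 lower at 28 days, with medians of -0.12 and -0.20. Apaf1, the scaffold of the apoptosome, fell by 0.59 and 0.92. Bak1, a pore former of mitochondria, was at -0.42 and -0.58 and Bcl2l1, a survival protein, at -0.40 and -0.44, while Bid, which links death receptors to mitochondria, was higher by 0.61 and 0.42.

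**Figure D5:**
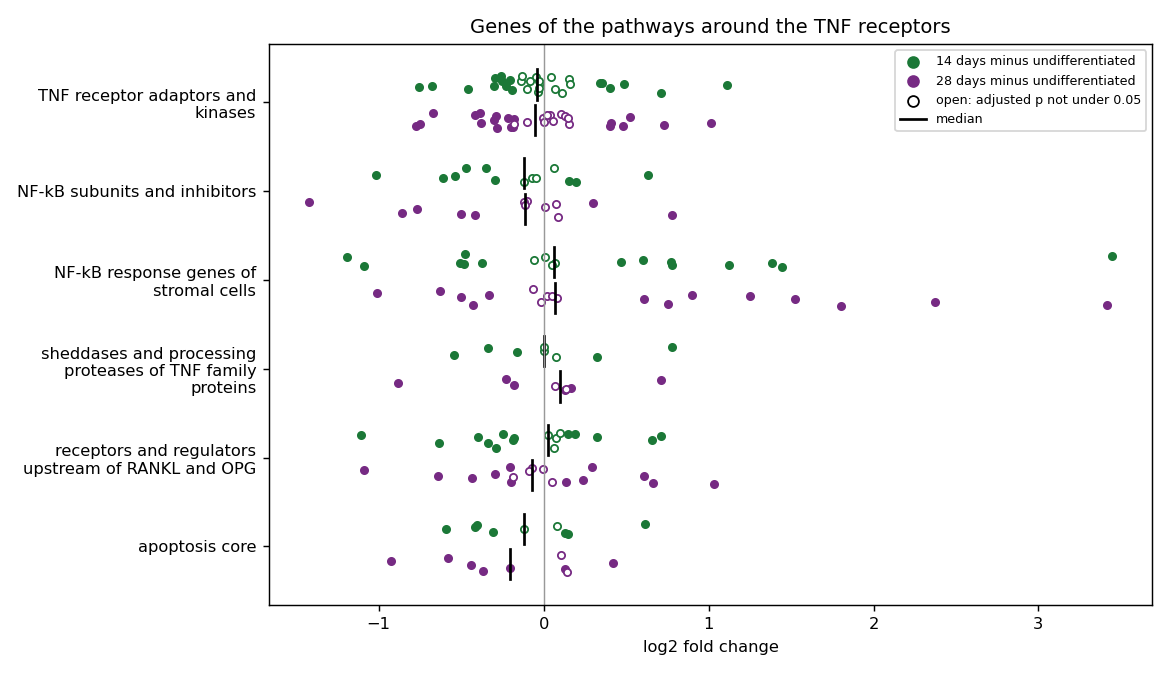
Log2 fold change (horizontal axis) of each measured gene of 6 lists around the TNF receptors at 14 days (green, upper row) and 28 days (purple, lower row) minus undifferentiated cells. Filled points passed limma's test, open points did not, and black bars are the list medians, which all lie between -0.20 and 0.10 while single genes reach -1.42 and 3.45.

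Many members are best known from immune cells, so markers of other cells were read beside them. Of 7 macrophage markers 3 were higher at both times, Cd14 by 2.56 and 2.74, Csf1r by 1.81 and 2.10 and Cd68 by 0.30 and 0.75 (limma adjusted p for Cd68 = 0.00785 and 1.05e-05), while Ptprc, Adgre1, Itgam and Lyz2 did not pass. Of all genes 35.7% were called at 14 days (18.2% higher), 39.9% at 28 days (20.4% higher) and 7.39% between 28 and 14 days. The mean of the 7 macrophage markers per array was -0.72 to -0.58 in undifferentiated cells, -0.06 to 0.03 at 14 days and 0.08 to 0.15 at 28 days. Their part in the changes of Tnfsf13b, Tnfrsf1b and the other members was not tested. Of 7 T and NK cell markers, 4 measured B cell markers and 7 osteoclast markers 0 were called by limma in any comparison, with 1 T and NK cell, 0 B cell and 1 osteoclast marker at an unadjusted p under 0.05 at each induced time against undifferentiated cells, and 1, 0 and 0 between 28 and 14 days. Of 5 endothelial markers 3 were higher at 14 days and 4 at 28 days, led by Kdr with 1.91 at both times, and of 4 measured adipocyte markers 1, Fabp4, was higher, by 3.50 and 3.63.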

How the data were processed

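The submitters' processing notes name RMA, and the deposited values are read as log2 signals on that ground; the log base is not stated. Each of 33794 probe sets had been centred on its own median over the 9 arrays, as a check of the deposited table showed, and every array had a median of 0, so levels are unknown and a filter on dim probes was not possible. The direction was taken as higher value for more RNA. Probe sets with 1 gene symbol (23521; 1814 had several and 8459 none) were averaged per gene, giving 22180 genes. A model with 1 mean per group was fitted to all 9 arrays with limma 3.58.1 in R 4.3.3, with Benjamini-Hochberg adjustment over all genes and a threshold of 0.05. The script was tested on simulated data. Members with a called log2 change of at least 0.5 are given array by array, RANKL, OPG and RANK always, and list genes by size of change. The members and lists were chosen with earlier results of these data known. Alternatives were other adjustments, tests and scalings, a replicate block and leaving out each array. Gene positions and upstream sequences are from RefSeq (GRCm38.p6). The number of arrays limits the precision.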

Additional observations from a re-analysis of the deposited data

Results flagged for a closer look

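A pair of probe sets lay outside the members because each is assigned to several genes. The first was called above undifferentiated cells at both times, the second at 28 days only. Probe set 17264884, assigned to Tnfsf12, Tnfsf13 and their readthrough Tnfsfm13, was higher by 0.63 at 14 days (SE 0.07, limma adjusted p = 2.49e-05) and by 0.74 at 28 days (adjusted p = 6.30e-06). All induced arrays lay above all undifferentiated arrays, and which of the ligands TWEAK (Tnfsf12) and APRIL (Tnfsf13) gave the signal cannot be told apart. Probe set 17433934, assigned to Tnfrsf18 and Gm16008, was higher by 0.15 at 28 days (SE 0.05, limma adjusted p = 0.0246), and its 14-day difference of 0.08 did not pass (adjusted p = 0.24). Its 14-day arrays all held 0, as did undifferentiated replicate 2.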

How the results depend on the processing

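Of 903 alternative values for 43 named values, 813 kept their direction and side of the threshold, 84 lost the call, 1 gained it and 5 turned direction. Not every setting could move a value. Every array already had a median of 0, so centring on it had nothing to move. Each member had 1 probe set, so settings on probe sets or on tied genes changed only the other genes of the fit. The 813 therefore overstate how far the values were tried. At 14 days 14 members were called, 9 at an adjusted p under 0.01, 7 in a test against a 1.5-fold change, and 9 to 14 when 1 array was left out. At 28 days the 1.5-fold test called 6 and leaving out an array 14 to 17. Between 28 and 14 days these were 0 and 6 to 7. For these settings and for the replicate block the share of all genes is not given. These member counts therefore stand without a background and cannot be read against it. The 28-day difference of Tnfrsf11b turned to 0.0039 under repeated quantile normalization and ran from -0.063 to 0.043 over the left-out arrays. That of Tnfsf11 ran from -0.018 to 0.079 and that of their ratio from -0.023 to 0.14; the cause was not tested. Repeated quantile normalization called 10, 11 and 8 members in the 3 comparisons, beside 26.2%, 28.5% and 9.57% of all genes under the same setting, against 35.7%, 39.9% and 7.39% without it. Same-numbered arrays of different groups shared little deviation (correlation -0.139 to 0.0677 over 9 pairs, 4 of 9 arrays best with their own number). So few arrays cannot settle whether the numbers pair them. With a replicate block 14, 16 and 6 members were called, and Tnfrsf9 at 14 days lost its call (limma adjusted p = 0.0674).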

Other observations

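Tnfrsf10b, Eda2r and Fas are known targets of the transcription factor p53. Any part of p53 in their changes was not tested, and Fas passed at 28 days only. A list of 10 other p53-responsive genes was chosen after the member values were seen and is therefore given without a test of the list. It had 1 gene higher and 7 lower at 14 days (median log2 fold change -0.59, background 35.7% called). At 28 days 2 were higher and 7 lower (median -0.66, background 39.9%). Cdkn1a, the cell cycle inhibitor p21, was at -1.34 and -1.49, Mdm2, the ubiquitin ligase of p53, at -0.94 and -1.09, and Sesn2, a stress-induced sestrin, at -1.08 and -1.15. Trp53inp1 was higher by 0.59 and 0.44. Btg2, an antiproliferative gene, was at 0.19 at 14 days (limma adjusted p = 0.0732), was higher by 0.87 at 28 days (adjusted p = 3.14e-06), and was the 1 gene of the list called between 28 and 14 days, at 0.69 (adjusted p = 0.000341). The mean of the list per array was -0.02 to 0.01 at 14 days and -0.04 to 0.01 at 28 days, against 0.50 to 0.52 in undifferentiated cells.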
